A study of Mus musculus with 3 samples.

Results

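The genes described here encode CTCF and 9 proteins that form, load, hold, modify or release the cohesin ring, and CTCF binding at them was read from 1 CTCF ChIP-seq library of mouse LSK cells. The 10 genes (Ctcf, Rad21, Smc3, Stag1, Wapl, Nipbl, Mau2, Pds5a, Pds5b and Esco1) were listed by the function of their products, from 21755 protein-coding genes of GENCODE M21 on Chromosomes 1 to 19 and X. No peak value entered the rule, but the list was drawn up when results of the same peak list were already known, so its counts are descriptions. Every peak that shared a base with a gene body or with the 50 kb beyond either end was counted, which gave 25 of the 18945 peaks in the list. A promoter peak was one within 1 kb of the 5′ end of the gene record. LSK cells are a bone marrow population enriched for hematopoietic stem cells and multipotent progenitors. They were sorted from adult male C57BL6 mice with no genetic change or treatment named, as cells with cKit and Sca1 and without CD4, CD8, CD11b, CD45R, IL7Ra, Ly6g and Ter119. The study also holds an LSK input and a megakaryocyte erythroid progenitor input, which were not analyzed here. A peak list carries no expression level, so the labelled cell type could not be checked against its marker genes.

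CTCF is a zinc finger protein that binds a directional DNA motif and stops cohesin as it extrudes chromatin loops. Cohesin is a ring built from the SMC proteins, among them SMC3, the kleisin RAD21 and a STAG subunit such as STAG1. NIPBL and MAU2 form the loader that helps cohesin onto chromatin and drives extrusion, WAPL opens the ring and releases it, and PDS5A and PDS5B bind the ring and act both with WAPL and with the acetyltransferases. ESCO1 acetylates SMC3, which protects the ring from release, and the genes therefore hold both sides of the balance that sets how long cohesin stays on DNA and how large loops become.

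Several values describe each peak. The fold enrichment is the authors' ratio of ChIP signal over the background of the peak caller, and its median over the 18945 peaks was 10.12. The −log10 p-value, which belongs to the caller's own model of 1 library, had a median of 12.617 and a minimum of 5.001. The position was taken on mm10 with 1-based coordinates, and the CTCF core motif, a pattern of 12 bases with 5 degenerate positions, was searched on both strands within the peak. The library has no replicate, so no difference below carries a test. The main counts are set beside the same count over all genes or all peaks, but the motif directions have no such share. The number of reads behind a peak is not in the list.

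The best motif matches of 7 of the peaks are shown because the loci differed in how closely they held the motif. Each run covers 30 bases of mm10 in the direction of the motif, with the 12 bases of the match in capitals. The first 4 are the matches without a mismatch, and the last 3 are the matches of the peaks at Smc3, Rad21 and Pds5a that the results below turn on.
Ctcf, 13.6 kb upstream, chr8:105622557-105622586, plus strand: gagctgtcgCCACCAGGGGGCagcagaact
Ctcf, downstream in Gfod2, chr8:105714342-105714371, plus strand: tgccttcttCCAGTAGGGGGCgctgcagga
Stag1, inner start, chr9:100643564-100643593, plus strand: gcagcgcggCCAGCAGAGGGCggtcgggac
Pds5b, gene start, chr5:150673684-150673713, plus strand: gccgtgcggCCGGTAGGGGGCgctgagaac
Smc3, downstream, chr19:53648900-53648929, plus strand: tccccgtagCCACTAGAGGGAgcccttgat
Rad21, downstream, chr15:51911898-51911927, plus strand: tcatctccgCCCCTAGGGGGAgctccagcc
Pds5a, first kilobases, chr5:65696914-65696943, minus strand: cgatagaggCCGGTAGAGGACtgtgagaga

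The match without a mismatch was found in 4 of the 25 peaks, which is 16.0% with a 95% Wilson interval of 6.4% to 34.7% for counting error only, beside 35.6% of all peaks. With 1 mismatch allowed, 20 of the 25 peaks held a match (80.0%, interval 60.9% to 91.1%), beside 83.6% of all peaks. The members' peaks thus held a smaller share of exact matches than the whole list, and about the same share of near matches. The former rests on 4 peaks, and its interval, which counts each peak as independent, ended just below the share of all peaks. The exact share was 21.1% with a −log10 p-value of at least 10 and 21.6% with 100 kb flanks. Over all peaks at coding promoters it was 29.8%. Positions in the motif are counted from 1 at its 5′ end. Among the 16 peaks whose best match had 1 mismatch, 5 carried Y5A (Y being C or T) and 3 carried C12A, the change seen above at Smc3 and Rad21. The Pds5a match carried G11A. The same 2 substitutions led the whole list, where Y5A made up 26.4% and C12A 10.6% of the 9091 peaks with 1 mismatch. In the 20 peaks with a match, the median distance from the match to the peak midpoint was 39.0 bp (28.5 bp over all peaks), and 17 lay within 100 bp, beside 91.7% over all peaks.

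Promoter stretches are shown for 3 of the genes with a promoter peak, read in the direction of transcription and ending before the annotated start, because the place and closeness of the match differed between them. The capitals mark the closest match, without a mismatch at Pds5b, with 1 mismatch (K9A, K being G or T) at Smc3 and with 2 mismatches at Nipbl.
Pds5b, chr5:150673599-150673738, plus strand: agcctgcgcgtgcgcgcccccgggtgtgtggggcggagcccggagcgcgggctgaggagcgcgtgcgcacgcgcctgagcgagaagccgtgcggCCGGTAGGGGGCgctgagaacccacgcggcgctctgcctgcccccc
Smc3, chr19:53599815-53600014, plus strand: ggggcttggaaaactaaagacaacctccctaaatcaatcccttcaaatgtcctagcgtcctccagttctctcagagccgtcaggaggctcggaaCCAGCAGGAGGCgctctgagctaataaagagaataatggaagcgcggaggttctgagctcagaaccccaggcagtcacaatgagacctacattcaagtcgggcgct
Nipbl, chr15:8445410-8445609, minus strand: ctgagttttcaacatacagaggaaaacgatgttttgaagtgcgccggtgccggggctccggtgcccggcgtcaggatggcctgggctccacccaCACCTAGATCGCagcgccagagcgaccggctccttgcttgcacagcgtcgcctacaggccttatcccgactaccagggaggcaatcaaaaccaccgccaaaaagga

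The 3 stretches lay at different distances from the start and differed in base content. The 140 bases at Pds5b, which reach the start, had 79.3% G and C with 22 CpG. The 200 bases at Nipbl had 60.0% with 15 CpG, and the 200 bases at Smc3 had 52.5% with 8 CpG, both farther upstream. In the kilobase around each start the shares of G and C were close, 67.1% at Pds5b, 66.1% at Nipbl and 69.6% at Smc3. In each stretch the closest match ran with the gene. At Esco1, whose promoter peak is not shown here, the closest match ran against the gene.

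A promoter peak was present at 4 of the 10 genes, Smc3, Nipbl, Pds5b and Esco1, beside 8.59% of all protein-coding genes. Among the 7936 protein-coding genes as long as the members (26.6 to 362 kb) the share was 8.74%, and among genes whose start was at least as rich in CpG as the lowest member it was 11.8%. That lowest member, Stag1 (observed over expected CpG 0.391), was below the median of coding genes (0.558), so the latter group is not matched to the others. The other 9 members lay between 0.886 and 1.1, and 4 of these 9 had a promoter peak, beside 10.3% of the 2136 coding genes in that range, a comparison added after the data were seen. The 4 genes with a promoter peak encode a ring subunit, a loader subunit, a PDS5 protein and the acetyltransferase. The members were listed for such differing roles, so this spread is not a result of the peaks. The 6 members without a promoter peak were Ctcf, Rad21, Stag1, Wapl, Mau2 and Pds5a. Function alone does not set the members apart from the 13 other cohesin genes given below, among them Smc1a, Stag2 and Stag3. None of those 13 had a promoter peak by the 5′ end of the gene record. The share among the members therefore depends on which cohesin genes were listed. The Nipbl peak, at 764 bp, was the nearest to the 1 kb limit from inside, and the Pds5a peak, at 1058 bp, was just outside it. Within 250 bp of the start the count was 3 (5.58% of coding genes), without Nipbl. Within 5 kb it was 5 (18.9%), with Pds5a. When every annotated transcript start was used in place of the 5′ end of the gene record, the count was 6, beside 13.1% of all protein-coding genes, with Stag1 and Pds5a added.

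**Figure D1:**
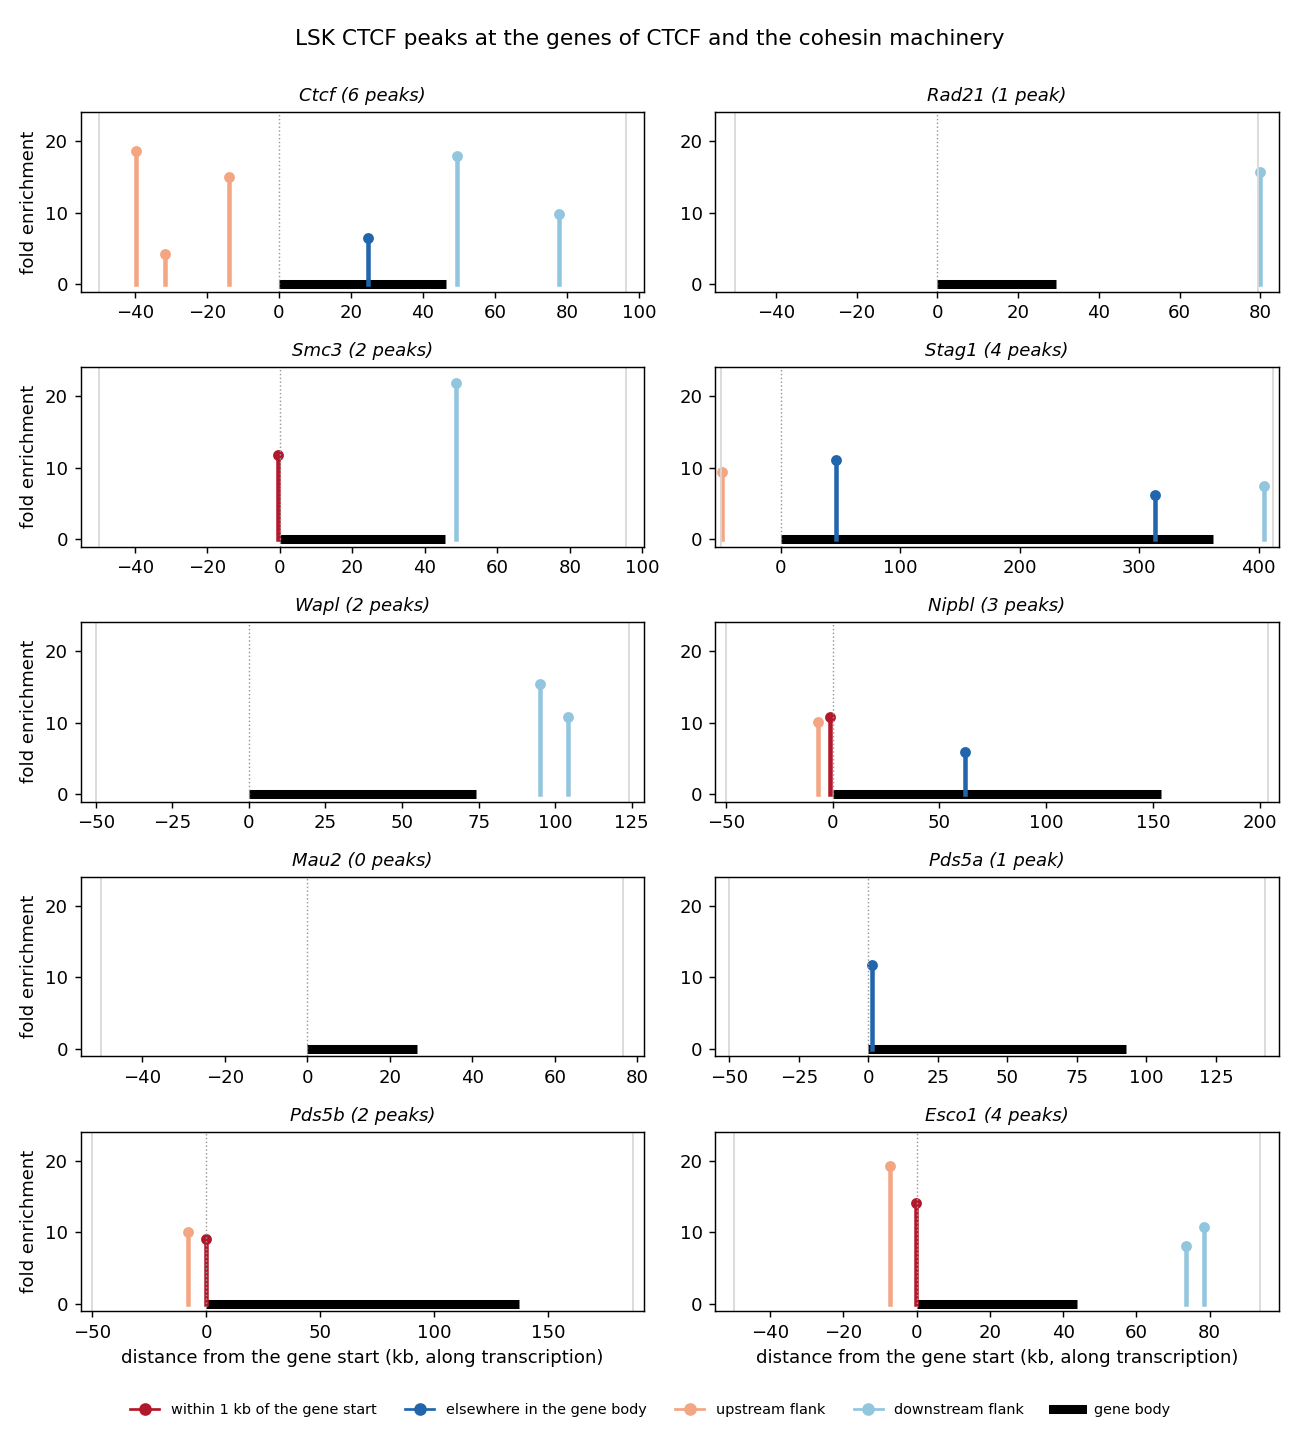
CTCF peaks in the 10 gene windows, plotted by the distance of the peak midpoint from the gene start in kb along transcription (x axis) and by the authors' fold enrichment (y axis). The black bar is the gene body, the dotted line its start and the grey lines the ends of the 50 kb flanks. Colors give the place of the peak, Ctcf had 6 peaks and Mau2 none.

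A peak shared bases with the gene body at 6 of the 10 genes (Ctcf, Stag1, Nipbl, Pds5a, Pds5b and Esco1), beside 30.0% of all protein-coding genes and 48.2% of those in the same length range. At Pds5b and Esco1 this was the promoter peak reaching past the start. The bodies of Ctcf and Nipbl held only peaks near the caller's limit, and with peaks of a −log10 p-value of at least 10 the count was 4. The 10 gene bodies together held 7 peaks over 1011 kb, or 0.693 per 100 kb, beside 0.967 per 100 kb in the bodies of genes in the length range. Within 50 kb a peak was found for 9 of the 10 genes, beside 75.5% of all protein-coding genes and 81.9% in the length range, and Mau2 was the exception. The windows held 1.24 peaks per 100 kb, beside 1.3 for the windows of genes in the length range and 0.719 for the genome. The windows were thus no richer in peaks than those of other genes as long, and of the 3 counts the one at gene starts was the farthest from its background.

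Of the 25 peaks, 10 lay within 1 kb of some gene start, beside 14.1% of all peaks and 14.7% of the peaks in the windows of genes in the length range. Of these, 4 were the members' own promoter peaks, and the remaining 6 lay at starts of neighbors only. By midpoint, 11 peaks were intergenic, 9 intronic and 5 exonic. The members' peaks had a median fold enrichment of 10.77 (order-statistic interval of the median 9.46 to 14.03) and a median −log10 p-value of 14.518. Of the 25, 14 exceeded the median fold of the list, 4 were in its highest decile (at least 16.64) and 4 in its lowest (at most 6.53). Folds ran from 4.24 to 21.86, and the 4 in the highest decile all lay in the flanks.

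**Figure D2:**
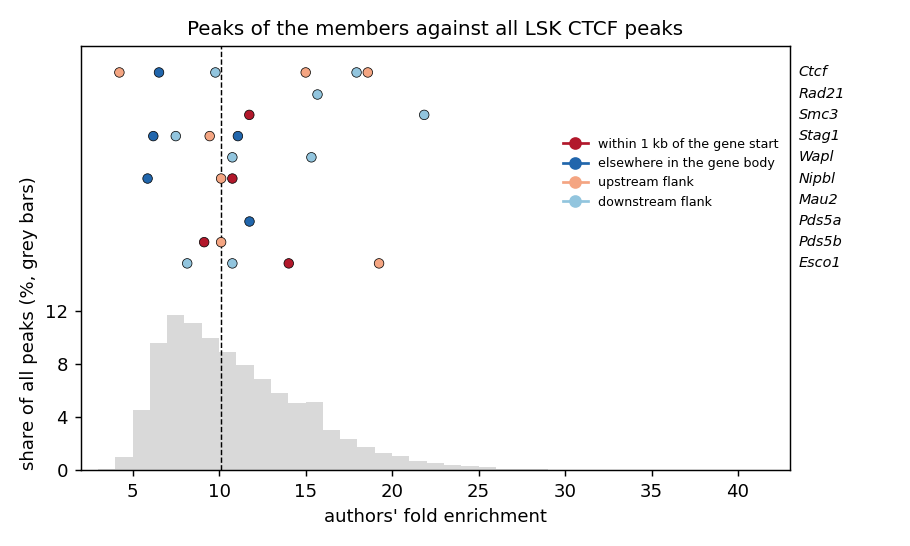
The authors' fold enrichment of the 25 peaks (x axis, 1 row per gene, 1 point per peak, colored by place) above the distribution of all 18945 peaks (grey bars, share of peaks in percent per unit of fold). The dashed line is the median of all peaks, 10.12, and 14 of the 25 points lie to its right.

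CTCF itself had the most peaks, with 6 in a window of 146.0 kb and none at its start. Ctcf (chr8:105636568-105682922, plus strand) is 46.4 kb long, and the window held 12 gene starts. Upstream of the gene, the peak at chr8:105596261-105597332 had a fold of 18.60 (−log10 p-value 63.87), the highest −log10 p-value of the 25 peaks. Closer in, the peak at chr8:105622271-105622989 ended 13579 bp before the Ctcf start, had a fold of 15.01 and held the exact match shown above, which ran with the gene. Both midpoints fell in an intron of the Agrp record, whose long annotated form spans this flank. Another upstream peak, chr8:105604849-105605314, lay at the start of Ripor1 with a fold of 4.24 and a −log10 p-value of 5.241, which placed it at rank 18893 of 18945.

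The only peak in the Ctcf body, chr8:105661093-105661669, was intronic and weak, with a fold of 6.53 and a −log10 p-value of 5.344. It lay 306 bp from the processed pseudogene Gm5915, its best motif match had 2 mismatches, and 59.3% of its bases were soft-masked repeats. It was the only one of the 25 peaks above 50% repeat, beside 6.19% of all peaks, and whether reads mapped to several places contributed was not tested. Past the 3′ end, the peak at chr8:105685594-105686337 began 2672 bp beyond Ctcf at the start of Carmil2, with a fold of 17.95 and no near match to the motif. The last one, chr8:105713987-105714748, lay in an untranslated exon of Gfod2 with a fold of 9.79 and the other exact match in a Ctcf peak. The gene that encodes CTCF was thus flanked on both sides by peaks above the list's median, while its own start had none, although that start was CpG-rich (observed over expected CpG of 0.976 in the kilobase around it, against a median of 0.558 for coding genes).

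The ring subunits differed from each other. Smc3 (chr19:53600398-53645833, plus strand), the SMC subunit that is acetylated, had a promoter peak and a peak past its 3′ end. The promoter peak, chr19:53599472-53600173, ended 225 bp before the start, with a fold of 11.75 and a −log10 p-value of 17.13, and it also lay 61 bp from the start of the unclassified transcript AC137853.1, which is read the other way. The RefSeq promoter of Smc3 shared 28 of its 300 bases with this peak and held no near match to the motif. The second peak, chr19:53648663-53649377, began 2830 bp beyond the gene end with a fold of 21.86 and a −log10 p-value of 45.121. That was the highest fold of the 25 peaks, rank 371 of 18945. The gene body between them, 45.4 kb long, held none, and the 2 motif matches ran the same way, with the gene.

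Rad21 (chr15:51962240-51991747, minus strand), the kleisin that closes the ring, had a single peak at the very edge of its window. It lay at chr15:51911487-51912299, 49941 bp beyond the 3′ end and 79448 bp from the start, with a fold of 15.66, and its midpoint was intergenic. Rad21 dropped out when the midpoint had to lie within 50 kb, which left 8 genes. The next nearest to the limit from inside was the upstream peak of Stag1, at 48882 bp with a fold of 9.46. Stag1 also had the first peak beyond the limit, at 51629 bp with a fold of 17.95, and Wapl the next, at 56547 bp with a fold of 14.68.

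Stag1 (chr9:100597798-100959375, plus strand) encodes one of the interchangeable STAG subunits that contact CTCF. At 362 kb it was the longest member, and it had 2 peaks in its body and 1 in each flank. Its record starts at a position poor in CpG (observed over expected 0.391, the lowest of the members) with no peak within 45 kb. The first body peak, chr9:100643275-100643900, had a fold of 11.09 and a −log10 p-value of 12.509, and 73.8% of its bases were G or C, with an observed over expected CpG of 0.988. Of the 17 annotated Stag1 transcripts, 10 start inside this peak, 4 of them protein-coding, and the RefSeq start of Stag1 (chr9:100643448) is also there, 45650 bp from the 5′ end of the GENCODE record. The RefSeq promoter of Stag1 shared 223 of its 300 bases with the peak. The peak held 2 exact matches to the motif, and the one shown lies in an exon. A gene that has no promoter peak by the 5′ end of its record thus had one where most of its annotated transcripts start. The second body peak, chr9:100910325-100910890, was intronic with a fold of 6.20, and its match ran against the gene. The downstream peak, chr9:101001963-101002640, lay in an intron of Pccb with a fold of 7.50, and the upstream one, chr9:100548147-100548916, was intergenic.

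Nipbl and Mau2, whose products work as 1 loader, differed, with 3 peaks against none. Nipbl (chr15:8290617-8444463, minus strand) encodes the larger subunit. The promoter peak, chr15:8445227-8445819, had a fold of 10.77 and a −log10 p-value of 14.518 and was the only promoter peak without a near match to the motif. A second one, chr15:8450987-8451584, lay 6524 bp upstream with a fold of 10.12, and the third, chr15:8382045-8382567, lay in an intron with a fold of 5.87. The promoter peak of Nipbl was also the least central of the 4, and by midpoint, 1060 bp upstream, it fell outside the 1 kb window.

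Mau2 (chr8:70016123-70042734, minus strand) had no peak in its body or within 50 kb. The nearest, chr8:69918859-69919435, lay 96688 bp from the gene body with a fold of 8.16, and 16.1% of all protein-coding genes were at least as far from a peak. The Mau2 start lies 79 bp from that of Sugp1, which is read the other way, and its CpG content (0.904) was close to that of the starts with a peak (0.910 to 0.965). The window held 3 exact copies of the core motif, none of them in a peak. Over the 10 windows 5 of 16 such sites lay in a peak (31.2%, interval 14.2% to 55.6%), beside 30.3% of the sites in the genome. Absence from the list means that no peak passed the caller's limit in this library, not that CTCF was absent.

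Wapl (chr14:34673928-34747983, plus strand) encodes the release factor and had peaks only downstream. The closer one, chr14:34768774-34769576, was 20791 bp past the gene end, at the start of the noncoding Gm49032, with a fold of 15.34 (−log10 p-value 25.764). The other, chr14:34777655-34778445, had a fold of 10.77 and no near match to the motif. The Wapl start lies 165 bp from that of 5830448L01Rik, which is read the other way, and was CpG-rich (0.908) without a peak. On the other side the nearest peak was at 56547 bp, outside the window.

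Pds5a and Pds5b, paralogs that encode the 2 PDS5 proteins, both had a peak close to the start, on opposite sides of the 1 kb limit. Pds5b (chr5:150673739-150810690, plus strand) had a peak over its start, chr5:150673295-150673833, with a fold of 9.14 (−log10 p-value 12.891), the weakest of the 4 promoter peaks by both measures. The exact match within it lay 41 bp upstream of the start. The RefSeq promoter of Pds5b, whose start is 88 bp farther in, shared 257 of its 300 bases with the peak and held the same match, which 1.4% of 32851 RefSeq promoters of that length do. A second peak, chr5:150665537-150666150, lay at the start of the neighbor N4bp2l2 with a fold of 10.12. The matches of the 2 peaks, 7.81 kb apart, pointed away from each other, the only such pair of successive matches among the members.

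Pds5a (chr5:65605721-65698273, minus strand) had 1 peak, chr5:65696518-65697215, with a fold of 11.75 and a −log10 p-value of 16.625. It began 1058 bp inside the gene and covered an early exon, and 3 of the 14 annotated transcripts, 2 of them protein-coding, start within 1 kb of it. The match in it ran with the gene. The RefSeq promoter of Pds5a held a near match (1 mismatch, found in 12.1% of RefSeq promoters) but no peak. Both PDS5 genes thus had a single peak near the start and no other peak inside the gene, over bodies of 137.0 kb and 92.6 kb.

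**Figure D3:**
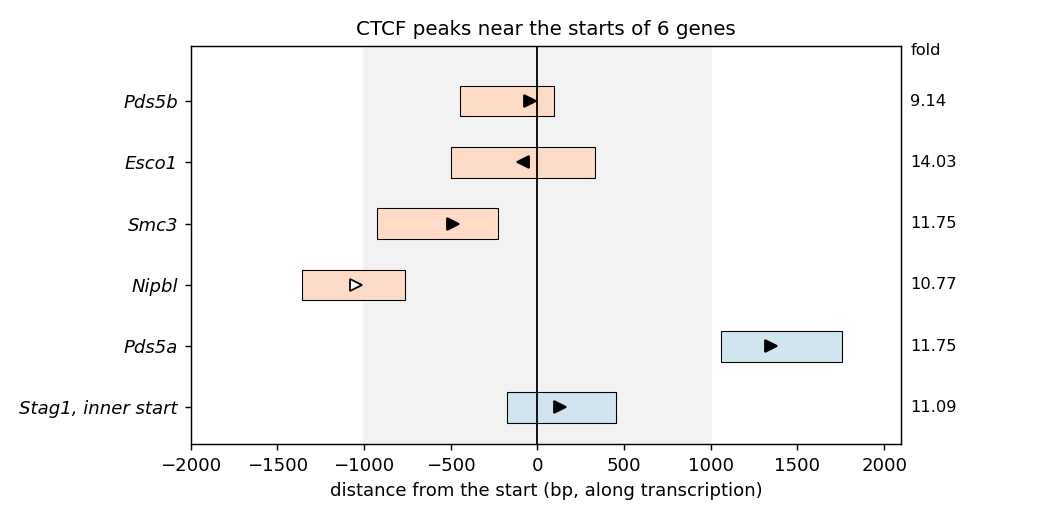
Extent of the CTCF peak (bars) at or near the start of 6 members, by distance from the start in bp along transcription (x axis), with the authors' fold enrichment at the right. Red bars are promoter peaks, blue bars the peaks of Pds5a and of the inner start of Stag1, the grey band is 1 kb to either side, and arrowheads show the closest motif match and its direction (open with 2 mismatches, at Nipbl). For Stag1 the start is that of the RefSeq promoter, and only Pds5a lies wholly outside the band.

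Esco1 (Chromosome 18, 10566507 to 10610352, minus strand), which encodes the acetyltransferase that acts on SMC3 throughout the cell cycle, had 4 peaks. The promoter peak at 10610022 to 10610851 lay over the start, where all 9 annotated transcripts begin within the peak, with a fold of 14.03 (−log10 p-value 23.614), the strongest of the 4 promoter peaks by both measures. The next peak, at 10617338 to 10618170, lay at the start of the neighbor Snrpd1, which encodes a spliceosomal protein, with a fold of 19.25. Beyond the 3′ end, 2 peaks in introns of Greb1l had folds of 10.77 and 8.16. All 4 had a near match and none an exact one, and the 4 matches ran the same way, against the gene.

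The direction of the motif matters because CTCF stops cohesin that arrives from one side. Of the 20 peaks with a match, 9 had it in the direction of the gene and 11 against it. No share over other genes or peaks was computed for this count or for the pairs below, so both only describe these loci. Taking successive peaks with a match in each window and passing over those without one, which occurred at Ctcf and Nipbl, 9 of 11 pairs of matches pointed the same way, 1 pair pointed toward each other (the 2 body peaks of Stag1, 267 kb apart) and 1 pair away from each other. All 11 pairs rest on best matches, most with 1 mismatch. Where a peak held several equally good matches, the one nearest its midpoint was taken. No contact between these sites was measured here.

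**Figure D4:**
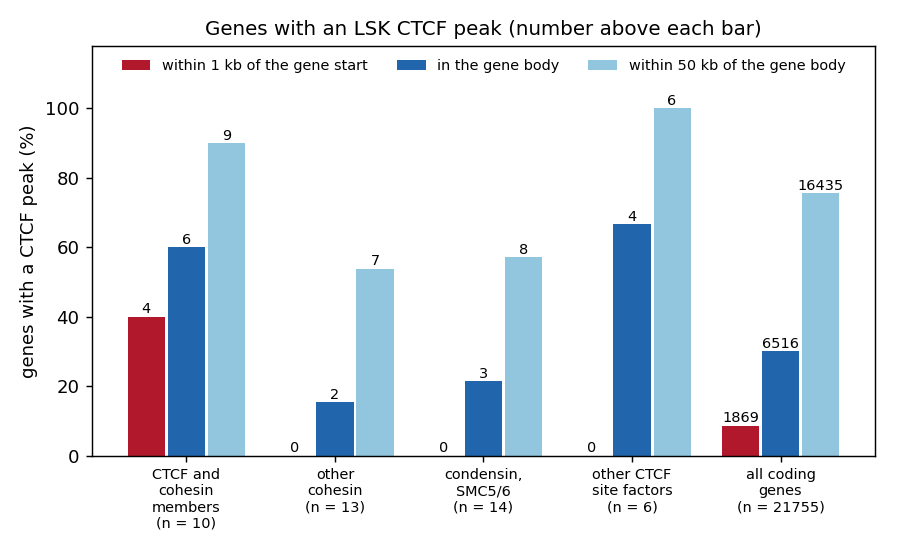
Share of genes with a CTCF peak within 1 kb of the gene start, in the gene body and within 50 kb of the body (y axis, percent) for the members, 3 other lists and all protein-coding genes, with the number of genes above each bar. Promoter peaks were found at 4 of 10 members and at 0 of the 33 genes of the other lists, by the 5′ end of the gene record. The lists were not matched to the members in gene length or CpG content.

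The other genes of the pathway, 33 in 3 lists, had no promoter peak, beside 8.59% of all protein-coding genes. With every transcript start in place of the 5′ end of the gene record, 4 of the 33 had one (Espl1, Nsmce4a, Maz and Patz1), beside 13.1% of all protein-coding genes and 6 of the 10 members. Of the 13 further cohesin genes (other SMC, STAG and kleisin subunits and regulators such as sororin, shugoshin, separase and securin), 2 had a peak in the body and 7 within 50 kb. Of the 14 genes of condensin and the SMC5/6 complex, relatives of cohesin, 3 had a peak in the body and 8 within 50 kb. Of 6 genes for other factors found at CTCF sites, 4 had one in the body and all 6 within 50 kb. The body counts sum to 9 of 33 (27.3%), close to the 30.0% of all coding genes. The window counts sum to 21 of 33 (63.6%), beside 75.5%. Both counts include Smc1a, Stag2 and Hdac8 on Chromosome X, where fewer coding genes (31.1%) had a peak within 50 kb. The lists were short and were chosen by function, and the members' count differed from theirs by a few genes. They were also not matched to the members. The median gene length was 29.9 kb in the lists together and 60.2 kb in the members. The median observed over expected CpG at the start was 0.783 and 0.917.

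Of the 33, 12 had no peak within 50 kb, namely Smc1a, Stag2, Hdac8, Stag3, Rad21l, Sgo1, Smc2, Ncaph, Ncapg, Ncapg2, Smc5 and Nsmce3. Smc1a, which encodes the partner of SMC3 in the ring, was 902 kb from the nearest peak by its start. Stag2, the alternative to Stag1, was 116 kb away, and Hdac8, which encodes the deacetylase that reverses ESCO1, 184 kb, both also by the start. From the gene bodies the distances were 855347 bp for Smc1a, 115819 bp for Stag2 and 65087 bp for Hdac8. All 3 are on Chromosome X, where 31.1% of 948 coding genes had a peak within 50 kb and 1.27% a promoter peak, so their lack of peaks was shared with most genes of that chromosome. Patz1 (1017 bp) and Maz (1437 bp) were just outside the promoter limit and entered when it was set to 5 kb.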

How the data were processed

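CTCF ChIP-seq of LSK cells was measured in 1 library. The authors mapped reads to mm10 with Bowtie (1.0.0 in the submitters' processing notes, another version in the methods), allowed multiply mapping reads, removed reads on ChrM and unplaced chromosomes, and called peaks with MACS. No source used here gives the caller's settings or says whether the input was used, and the list comes from this library alone. The authors deposited each peak's fold enrichment (a linear ratio) and −log10 p-value. The list has no header, so these units were read from its layout and values.

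Peaks were joined to GENCODE M21 and the GRCm38.p6 sequence in Python 3.11.15 with numpy 2.4.6, pandas 2.3.3, scipy 1.17.1 and matplotlib 3.10.9. Sharing 1 base counted as overlap. Repeats were soft-masked bases. Promoter sequences of 7 members matched RefSeq by symbol. The scripts were tested on simulated data, in which 200 of 200 peaks planted at gene starts and 500 of 500 planted motifs were recovered. The text names the members, all their peaks, neighbors whose start lay within 1 kb of such a peak, and pathway genes with a promoter peak or without a peak within 50 kb. Other genes that hold a peak midpoint, a divergent start near Wapl or Mau2, and Patz1 and Maz were named after their values were seen. Members, motif and lists were chosen with earlier results of these data known. Alternatives changed the peak threshold, overlap rule, promoter and window widths, gene starts and motif stringency, and the range of CpG content was added after the data were seen.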

Additional observations from a re-analysis of the deposited data

How the results depend on the processing

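Of the recomputed values, 37 stayed within 1.5 times the reported count or within its interval. The 5 others moved beyond this. The pathway counts moved with the promoter width and the choice of gene start, and the rest follow from how the setting was built. Pathway genes with a promoter peak went from 0 to 2 with a promoter of 5 kb (Maz and Patz1) and to 4 with every transcript start (Espl1 and Nsmce4a added), peaks in the windows went from 25 to 14 with 10 kb flanks, peaks with the core motif went from 16.0% to 80.0% with 1 mismatch, and the median is 14.52 when given as a −log10 p-value in place of fold. Promoter peaks ranged from 3 genes (midpoint rule, or 250 bp) to 6 (every transcript start), and with a −log10 p-value of at least 10 the count was 4, with the same genes. Genes with a peak nearby numbered 7 with 10 kb flanks and 10 with 100 kb flanks. No paired analysis was possible because only 1 library has a file and no groups were compared, and for the same reason no replicate could be left out. Depth and the caller's limit set how weak a site could be listed, so a gene without a peak may still be bound.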
